A study of Mus musculus with 18 samples.

Results

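Lcn2, the acute phase genes Saa3, Cp and Hp, and 3 genes that NF-kB induces and that feed back on it, Nfkbia, Nfkbiz and Tnfaip3, were followed over 6 groups of mouse stem cell cultures. The genes were listed by symbol, and each was read from the probe set that the platform annotation gives to that symbol alone, with the highest mean over the 18 arrays to decide between several. Of the 8 symbols listed, 7 had such a probe set, with 1 probe set each, so that the mean decided nothing. The eighth, C3, was not analysed here. The 7 genes stand among 19938 measured in the same way. The set was selected on levels and changes in these same arrays, in that it was proposed with earlier results of them known, so their adjusted p-values give their place among all genes in the fit and are not independent evidence.

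Total RNA, 300 ng per array, was hybridised to Affymetrix Mouse Gene 1.0 ST arrays, with 3 biological replicates in each of 6 groups. The groups were differentiated adult stem cells and differentiated ES cells of the 129SV background, undifferentiated adult and ES cells on Stra8-EGFP/Rosa26 (Stra8 for short), and undifferentiated adult and ES cells of the 129SV background. The series title calls the adult cells germline stem cells and asks how similar they are to ES cells. The labels give no method of differentiation, feeder layer, medium, or number of lines and cultures behind the replicates, so p-values measure the spread between these samples, which may be technical, and no group can be taken as more than the line or lines it came from. Values are log2 signals, on which a step of 1 is a 2-fold difference. A value after ± is an SD over 3 arrays for a level and a standard error (SE) for a change.

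NF-kB is a family of transcription factors that inhibitor proteins hold in the cytoplasm until cytokines such as interleukin 1 and TNF, or receptors for microbial products, activate the IKK kinase and the inhibitors are destroyed. Among the genes it then switches on are its own brakes, which shut the response down again. Acute phase proteins are secreted during inflammation, many by the liver under interleukin 6, but Lcn2 and Saa3 are also made outside the liver, by fibroblasts, macrophages and epithelia in mice. ES cells are often grown on layers of embryonic fibroblasts, and LIF, which holds them undifferentiated, belongs to the interleukin 6 family.

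The genes formed 3 patterns. Lcn2, Saa3 and Cp were highest in adult Stra8 and ES 129SV cells and far lower in adult 129SV cells. Nfkbia, Nfkbiz and Tnfaip3 were highest in ES 129SV cells alone. Hp showed no called change in any comparison. Adult cells thus had lower levels than ES cells in the 129SV background for 6 of the 7 genes, against 23.1% of all genes. In the Stra8 background adult cells had higher levels for 5, against 13.2% of all genes.

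Lcn2 encodes lipocalin 2, a secreted protein that binds bacterial siderophores and withholds iron. Its log2 signal was 6.74, 7.06 and 7.04 in differentiated adult cells, against 7.99, 7.92 and 7.90 in differentiated ES cells. The signal in undifferentiated cells was 11.47, 11.36 and 11.38 in adult Stra8 cells, against 10.21, 9.99 and 10.21 in ES Stra8 cells, and 7.44, 7.34 and 7.32 in adult 129SV cells, against 11.27, 11.36 and 11.26 in ES 129SV cells. Adult Stra8 and ES 129SV cells were the high groups, ES Stra8 cells lay between, and the other 3 groups were low. No neighbouring groups overlapped in this order, although the lowest adult Stra8 array and the highest ES 129SV array both read 11.36.

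Saa3 encodes a serum amyloid A protein that is made outside the liver in mice. In differentiated cells it read 6.38, 6.56 and 6.43 in adult cells, against 5.56, 5.37 and 5.53 in ES cells. Undifferentiated cells read 11.38, 11.48 and 11.41 in adult Stra8 cells, against 10.11, 10.20 and 10.28 in ES Stra8 cells, and 8.825, 8.51 and 8.83 in adult 129SV cells, against 11.24, 11.15 and 11.07 in ES 129SV cells. All 6 groups stood apart, with adult Stra8 highest and differentiated ES lowest. The span between these group means was 5.94, which is 61.3-fold and wider than that of 99.96% of the genes measured.

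Cp encodes ceruloplasmin, the copper-binding ferroxidase of plasma. Differentiated adult cells read 6.62, 6.57 and 6.75, against 6.23, 6.11 and 6.20 in differentiated ES cells. Undifferentiated cells read 7.93, 7.9995 and 7.89 in adult Stra8 cells, against 6.93, 6.91 and 6.88 in ES Stra8 cells, and 5.92, 5.99 and 5.94 in adult 129SV cells, against 8.10, 8.12 and 7.92 in ES 129SV cells. ES 129SV and adult Stra8 cells were the high pair and overlapped each other, and the other 4 groups stood apart, with adult 129SV lowest.

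Hp encodes haptoglobin, which binds free haemoglobin in plasma. It lay between 6.34 and 6.76 over all 18 arrays, and every group overlapped its neighbours. Its group means spanned 0.16, a narrower span than that of all but 2.16% of genes. The signal lay below the median over all genes of every array, which was 7.56 to 7.66. Without a detection call, whether Hp was expressed was not tested.

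The sequence before the start of transcription is shown for Lcn2 and Saa3 and, further on, for Nfkbia and Tnfaip3, because their group means spanned the widest range in each pattern among the genes with a window in the RefSeq table used. The windows are the 250 bases upstream, on GRCm38.p6, written 5′ to 3′ along the gene. Each was searched on both strands for the kappa B consensus that NF-kB binds, for TTGCNNAA, a form of the site of C/EBP factors, for TTCNNNGAA, a form of the STAT site, and for TATAAA. Capitals mark matches, and overlapping matches were merged.
Lcn2, chr2:32387740-32387989, minus strand: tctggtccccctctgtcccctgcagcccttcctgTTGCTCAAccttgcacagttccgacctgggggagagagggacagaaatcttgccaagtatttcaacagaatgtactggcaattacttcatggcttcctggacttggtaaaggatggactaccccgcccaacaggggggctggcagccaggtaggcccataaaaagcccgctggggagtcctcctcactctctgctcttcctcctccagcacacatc
Saa3, chr7:46715677-46715926, minus strand: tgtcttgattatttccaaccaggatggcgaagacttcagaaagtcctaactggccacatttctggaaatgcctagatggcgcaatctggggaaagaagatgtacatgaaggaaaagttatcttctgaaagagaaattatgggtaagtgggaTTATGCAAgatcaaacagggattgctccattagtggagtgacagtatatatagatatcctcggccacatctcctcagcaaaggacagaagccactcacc

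The capitals are matches to TTGCNNAA, which begin 216 bases before the start of Lcn2 and, on the other strand, 99 bases before that of Saa3. One of the 2 windows of Cp also held 1 such match, 70 bases before its start, together with TATAAA on both strands. The kappa B consensus and TTCNNNGAA were in none of these windows. Over all 32851 windows of this length, 9.56% held TTGCNNAA, 3.90% the kappa B consensus, 7.02% TTCNNNGAA and 12.4% TATAAA. Matches describe the letters in these windows and no binding. RefSeq windows were found for 5 of the 7 genes, and not for Hp and Nfkbiz.

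Nfkbia encodes IkB alpha, the inhibitor that NF-kB induces soonest and that carries it back out of the nucleus. Its log2 signal was 9.57, 9.78 and 9.82 in differentiated adult cells, against 9.94, 9.88 and 10.04 in differentiated ES cells. It was 10.05, 10.09 and 9.98 in adult Stra8 cells, against 10.00, 9.98 and 10.00 in ES Stra8 cells, and 9.91, 9.97 and 9.99 in adult 129SV cells, against 11.15, 11.17 and 11.15 in ES 129SV cells. ES 129SV cells stood alone, 1.11 above the next group mean, the next 4 groups overlapped their neighbours, and differentiated adult cells were lowest without overlap.

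Tnfaip3 encodes A20, a ubiquitin-editing enzyme that stops signalling from TNF and Toll-like receptors upstream of IKK. Differentiated adult cells read 8.48, 8.53 and 8.55, against 8.59, 8.37 and 8.69 in differentiated ES cells. Undifferentiated cells read 8.64, 8.55 and 8.55 in adult Stra8 cells, against 8.02, 7.99 and 7.97 in ES Stra8 cells, and 8.30, 8.49 and 8.29 in adult 129SV cells, against 10.15, 10.18 and 10.16 in ES 129SV cells. ES 129SV cells again stood alone, 1.58 above the next group, and ES Stra8 cells were lowest without overlap.

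Nfkbiz encodes IkB zeta, a nuclear member of the inhibitor family that works with NF-kB as a coactivator, with Lcn2 among the genes that need it in mouse macrophages. The values were 9.05, 9.09 and 9.24 in differentiated adult cells, against 9.21, 9.07 and 9.32 in differentiated ES cells. Undifferentiated cells read 9.33, 9.12 and 9.15 in adult Stra8 cells, against 8.55, 8.50 and 8.52 in ES Stra8 cells, and 8.43, 8.53 and 8.42 in adult 129SV cells, against 9.67, 9.64 and 9.74 in ES 129SV cells. ES 129SV cells were highest without overlap, the differentiated groups and adult Stra8 cells overlapped in the middle, and ES Stra8 and adult 129SV cells overlapped at the low end.

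**Figure D1:**
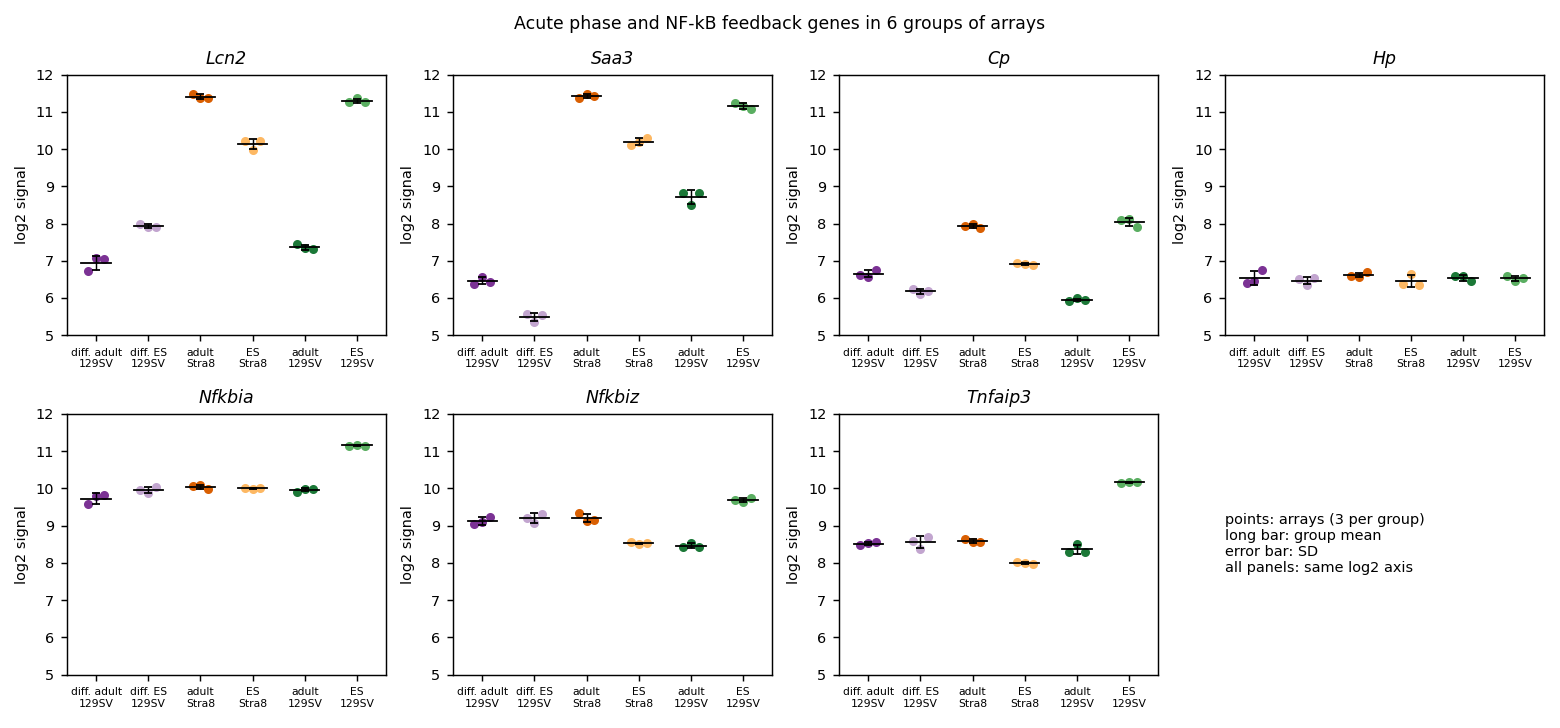
Log2 signal of each gene (vertical axis, same scale in all panels) in the 6 groups (horizontal axis), with a point per array, a bar for the group mean and an error bar for the SD (n = 3). Lcn2, Saa3 and Cp are high in adult Stra8 and ES 129SV cells, Nfkbia, Nfkbiz and Tnfaip3 are highest in ES 129SV cells, and Hp lies between 6.34 and 6.76 throughout.

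The windows of the other pair are shown in the same way.
Nfkbia, chr12:55492648-55492897, minus strand: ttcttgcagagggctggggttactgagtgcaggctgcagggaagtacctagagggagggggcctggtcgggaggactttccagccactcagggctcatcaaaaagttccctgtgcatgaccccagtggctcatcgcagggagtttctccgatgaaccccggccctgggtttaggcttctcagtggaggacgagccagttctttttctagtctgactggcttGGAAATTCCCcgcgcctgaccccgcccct
Tnfaip3, chr10:19015411-19015660, minus strand: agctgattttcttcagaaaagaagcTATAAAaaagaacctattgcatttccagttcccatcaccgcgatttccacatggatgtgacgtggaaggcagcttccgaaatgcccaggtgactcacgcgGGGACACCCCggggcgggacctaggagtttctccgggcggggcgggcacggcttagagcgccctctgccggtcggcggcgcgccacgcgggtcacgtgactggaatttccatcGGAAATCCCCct

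The Nfkbia window held 1 match to the kappa B consensus, beginning 29 bases before the start on the other strand. The Tnfaip3 window held 2, beginning 125 bases before the start and, on the other strand, 12 bases before it, as well as TATAAA 225 bases before it. A window of another annotated start of Tnfaip3 held none of the motifs. TTGCNNAA and TTCNNNGAA were not in the windows of either gene.

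Between undifferentiated adult and ES cells of the 129SV background, 6 of the 7 genes were lower in adult cells, where 23.1% of all genes were lower and 46.1% were called in either direction (adjusted p under 0.05). Lcn2 fell by 3.93 ± 0.08, which is 15.3-fold, Saa3 by 2.44 ± 0.09 (5.41-fold, adjusted p = 1.6e-12) and Cp by 2.10 ± 0.06 (4.29-fold). Lcn2 held place 17 among the decreases of all genes. The feedback genes fell by less, Tnfaip3 by 1.80 ± 0.07, Nfkbiz by 1.22 ± 0.07 and Nfkbia by 1.20 ± 0.06 (adjusted p = 2.0e-10). All 6 fell at least 2-fold, as did 3.43% of all genes, and their adult arrays lay below the ES arrays, where 56.8% of genes did not overlap in one direction or the other. The change of Hp was 0.01 ± 0.10 (adjusted p = 0.939), with a 95% confidence interval of -0.19 to 0.21.

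In the Stra8 background the direction was the opposite one. Of the 7 genes 5 were higher in adult cells and none was lower, against 13.2% higher and 28.3% called in either direction among all genes. Lcn2 rose by 1.27 ± 0.08 (2.41-fold, adjusted p = 1.6e-08), Saa3 by 1.23 ± 0.09 and Cp by 1.03 ± 0.06, each at least 2-fold, as were 0.487% of all genes. They stood at places 31, 35 and 78 among the increases. Cp lay at the 2-fold edge, from 0.998 to 1.06 under the processing alternatives given below. Nfkbiz rose by 0.68 ± 0.07 and Tnfaip3 by 0.59 ± 0.07 (adjusted p = 1.1e-05). Nfkbia, at 0.04 ± 0.06 (adjusted p = 0.708, interval -0.09 to 0.18), and Hp, at 0.16 ± 0.10 (0.260, interval -0.04 to 0.36), did not pass. The 5 called genes had adult arrays above all ES arrays, and 47.6% of all genes did not overlap.

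The difference between adult and ES cells was itself tested between the backgrounds, Stra8 minus 129SV. It was positive for 6 of the 7 genes, against 21.3% of all genes positive and 43.1% called. It was 5.20 ± 0.12 for Lcn2 (adjusted p = 7.6e-15, place 10 among all genes), 3.66 ± 0.12 for Saa3, 3.13 ± 0.09 for Cp and 2.39 ± 0.10 for Tnfaip3. Nfkbiz followed with 1.90 ± 0.10 and Nfkbia with 1.24 ± 0.09, while Hp, at 0.15 ± 0.14 (0.421), did not pass. All 6 differences were at least 1, as were 6.32% of all genes in the positive direction.

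Set directly between backgrounds, ES Stra8 cells were lower than ES 129SV cells for 6 of the 7 genes, against 20.0% of all genes lower and 41.4% called. Tnfaip3 fell by 2.17 ± 0.07 (4.51-fold), Lcn2 by 1.16 ± 0.08, Nfkbiz by 1.16 ± 0.07, Nfkbia by 1.16 ± 0.06, Cp by 1.14 ± 0.06 and Saa3 by 0.96 ± 0.09. Hp changed by -0.08 ± 0.10 (adjusted p = 0.590). All but Saa3 of the 6 fell at least 2-fold, as did 3.42% of all genes. Saa3 lay at that edge, from -1.003 to -0.91 under the processing alternatives given below. This comparison uses the same ES 129SV arrays as that of adult with ES 129SV cells.

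Adult Stra8 cells were higher than adult 129SV cells for 5 of the 7 genes, against 24.2% of all genes higher and 51.0% called. Lcn2 rose by 4.04 ± 0.08 (16.5-fold, adjusted p = 5.7e-15), place 2 among all genes, Saa3 by 2.70 ± 0.09 (6.51-fold), place 11, and Cp by 1.99 ± 0.06 (3.97-fold). Nfkbiz rose by 0.74 ± 0.07 and Tnfaip3 by 0.22 ± 0.07 (adjusted p = 0.018). The Tnfaip3 call was lost without adult Stra8 replicate 1 (adjusted p = 0.072), or without adult 129SV replicate 1 (0.067) or 3 (0.072). Nfkbia, at 0.08 ± 0.06 (0.293), and Hp, at 0.07 ± 0.10 (0.549), did not pass. Lcn2, Saa3 and Cp rose at least 2-fold, as did 3.55% of all genes, and none of the feedback genes did. The adult 129SV arrays are the same as in the comparison with ES 129SV cells.

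**Figure D2:**
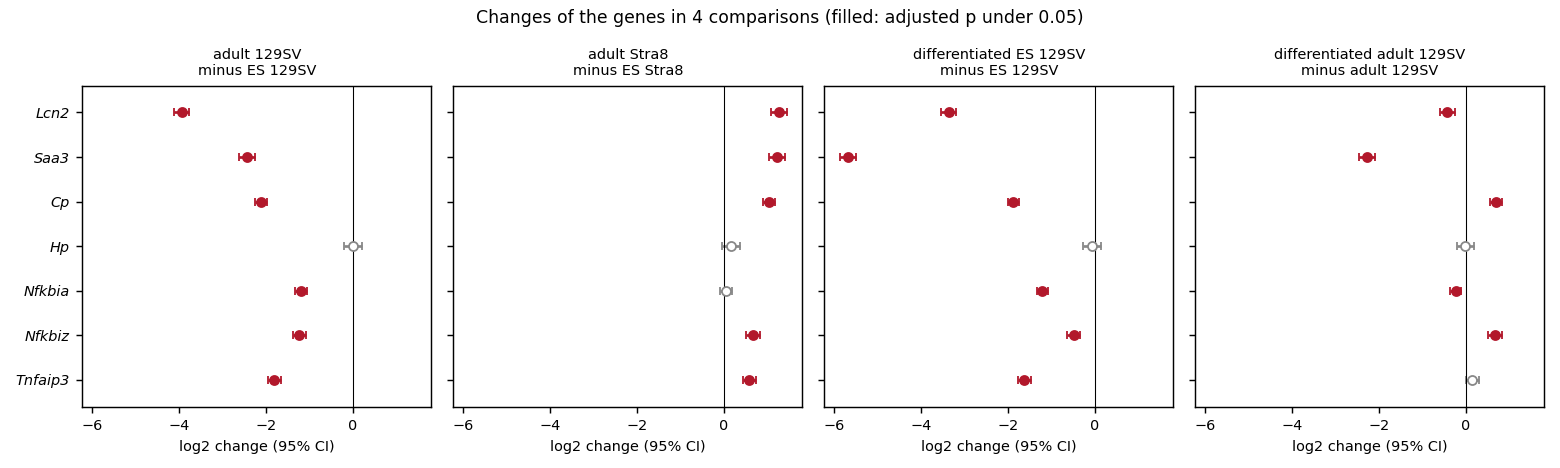
Log2 change of each gene (horizontal axis, with its 95% confidence interval) in 4 comparisons, with filled points for an adjusted p under 0.05. In the 129SV background 6 genes fall in adult cells, against 23.1% of all genes. In the Stra8 background 5 rise, against 13.2%. On differentiation 6 fall in ES cells, against 27.3%. In adult cells Saa3, Lcn2 and Nfkbia fall, against 32.2% of all genes, and Cp and Nfkbiz rise, against 27.5%.

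Differentiated ES 129SV cells were lower than undifferentiated ones for 6 of the 7 genes, against 27.3% of all genes lower and 55.2% called. Saa3 fell by 5.67 ± 0.09 (50.9-fold, adjusted p = 2.2e-17), place 6 among the decreases of all genes, Lcn2 by 3.36 ± 0.08 (10.3-fold) and Cp by 1.87 ± 0.06 (3.65-fold). Tnfaip3 fell by 1.62 ± 0.07, Nfkbia by 1.20 ± 0.06 and Nfkbiz by 0.49 ± 0.07. Hp changed by -0.07 ± 0.10 (0.584). All but Nfkbiz of the 6 fell at least 2-fold, as did 6.80% of all genes. The arrays of the 6 did not overlap, nor did those of 58.0% of all genes. Replicate 3 of differentiated ES cells had the lowest mean correlation with its group over all genes (r = 0.992, against up to 0.998 elsewhere), and without it these 6 calls stayed, with Saa3 at -5.69 and Nfkbiz at -0.55.

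In adult 129SV cells differentiation moved the genes in both directions. Of the 7 genes 3 fell, against 32.2% of all genes, and 2 rose, against 27.5%, with 59.7% of all genes called. Saa3 fell by 2.26 ± 0.09 (4.79-fold), Lcn2 by 0.42 ± 0.08 and Nfkbia by 0.23 ± 0.06 (adjusted p = 0.0046). Cp rose by 0.70 ± 0.06 (1.62-fold) and Nfkbiz by 0.67 ± 0.07 (1.59-fold). Tnfaip3, at 0.15 ± 0.07 (0.076), and Hp, at -0.0049 ± 0.10 (0.970), did not pass. Saa3 alone of the 7 changed 2-fold, as did 4.36% of all genes in its direction. The arrays of the 5 called genes did not overlap, nor did those of 62.6% of all genes. Tnfaip3 was called without adult 129SV replicate 2 (0.22, adjusted p = 0.0185), with arrays centred (0.0434) and with array weights (0.0295).

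The response to differentiation differed between origins, adult minus ES, for 6 of the 7 genes, all positive, against 24.2% of all genes positive and 45.7% called. The difference was 3.41 ± 0.12 for Saa3, 2.94 ± 0.12 for Lcn2, 2.57 ± 0.09 for Cp, 1.77 ± 0.10 for Tnfaip3, 1.15 ± 0.10 for Nfkbiz and 0.97 ± 0.09 for Nfkbia (adjusted p = 2.4e-07). Hp, at 0.06 ± 0.14 (0.726), did not pass. The difference was at least 1 for all 6 but Nfkbia, as it was for 5.43% of all genes. Under the processing alternatives given below Nfkbiz ran from 0.96 to 1.22 and Nfkbia from 0.78 to 1.05. Both undifferentiated 129SV groups enter this difference, and they were already 3.93 apart for Lcn2.

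After differentiation the 2 origins were closer. Differentiated adult cells were higher than differentiated ES cells for 2 of the 7 genes and lower for 2, against 19.4% higher, 12.8% lower and 32.2% called among all genes. Saa3 rose by 0.97 ± 0.09 (1.96-fold) and Cp by 0.47 ± 0.06 (1.38-fold), while Lcn2 fell by 0.99 ± 0.08 (1.99-fold, adjusted p = 1.3e-07) and Nfkbia by 0.23 ± 0.06 (0.011). The Nfkbia call was lost without differentiated adult replicate 1 (-0.15, adjusted p = 0.062) and in a fit to these 6 arrays alone (0.149). Nfkbiz, at -0.07 ± 0.07 (0.508), Tnfaip3, at -0.03 ± 0.07 (0.766), and Hp, at 0.07 ± 0.10 (0.599), did not pass. No gene of the 7 changed 2-fold here, as did 1.27% of all genes, but Lcn2 and Saa3 lay at that edge. With a replicate left out Lcn2 ran from -1.05 to -0.89 and Saa3 from 0.91 to 1.01, and leaving out any one of the 6 arrays took one of these genes past 2-fold (without differentiated ES replicate 3, Lcn2 was at -1.01).

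Other genes of the pathway were read from lists. Among 24 other NF-kB targets, such as chemokines, adhesion molecules and matrix metalloproteinases, all 24 were lower in adult than in ES 129SV cells (median -1.29, against 0.06 over all genes). The widest fall was that of Ptx3, a pentraxin of the acute response, at -3.55 ± 0.14. In the Stra8 background 19 of the 24 rose in adult cells and 1 fell (median 0.64, against -0.0033), Ptx3 again widest at 1.03 ± 0.14, with Gadd45b, a stress-induced growth arrest gene, at -0.47. On differentiation all 24 fell in ES cells (median -2.76), with the collagenase gene Mmp13 at -7.33 ± 0.08, and in adult cells 18 fell and 4 rose (median -1.16), with the adhesion molecule Vcam1 at 0.68 and the metalloproteinase Mmp3 at -4.59. These lists were written with earlier results of the arrays known. For this and the later lists, the shares of all genes called were 46.1% between adult and ES 129SV cells and 28.3% in Stra8 cells. On differentiation they were 55.2% in ES cells and 59.7% in adult cells.

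**Figure D3:**
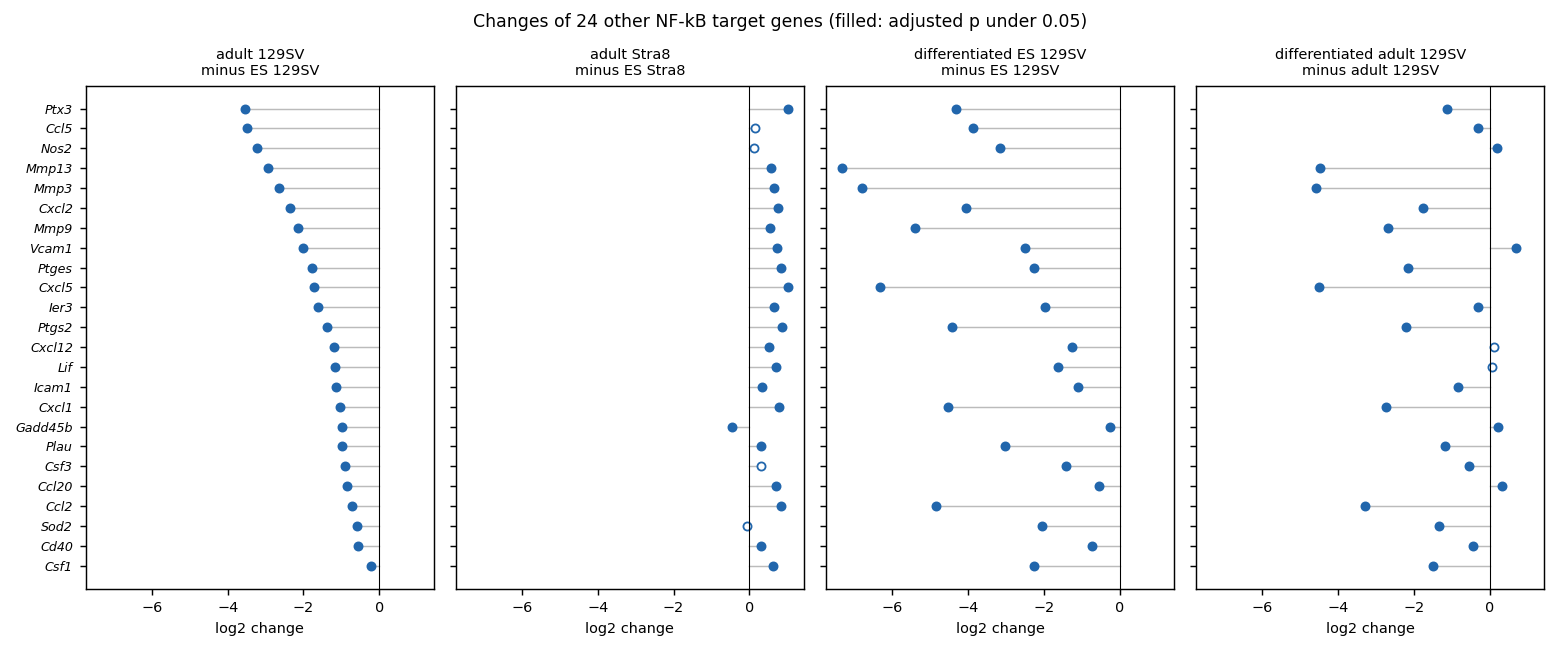
Log2 change (horizontal axis) of 24 other NF-kB target genes in 4 comparisons, ordered by the change between adult and ES 129SV cells, with filled points for an adjusted p under 0.05. All 24 fall in adult 129SV cells and in differentiated ES cells, and 19 rise in adult Stra8 cells.

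Cytokines and receptors upstream followed the targets in part. Of 23 measured, 14 were lower in adult than in ES 129SV cells and none was higher (median -0.63), with Il6, the cytokine that drives the acute phase response, lowest at -3.33 ± 0.13. In the Stra8 background 12 rose in adult cells and 2 fell (median 0.30), with Il6 at 1.46 and Socs3, a feedback inhibitor of interleukin 6 and LIF signalling, at -0.37. On differentiation 15 fell and 3 rose in ES cells, with Il6 at -6.40 and the LIF receptor Lifr at 1.46, and 8 fell and 10 rose in adult cells, with Il6 at -3.20 and Lifr at 2.73.

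The subunits of NF-kB and IKK and the remaining feedback genes went in both directions. Of 10 subunit and kinase genes 7 were lower and 1 higher in adult than in ES 129SV cells (median -0.41), the ubiquitin ligase Traf6 at -0.83 and the kinase Map3k14 at 0.30. In the Stra8 background 1 of the 10 passed, Ikbkb at -0.18 ± 0.05, and it was lost without adult replicate 2 or ES replicate 1 or 3. Of 15 other feedback genes 8 were lower and 2 higher in adult 129SV cells (median -0.19), with Irak3, an inhibitor of Toll-like receptor signalling, at -1.44 and the nuclear IkB protein Bcl3 at 0.51. In adult Stra8 cells 5 of the 15 rose and 4 fell (median -0.07), Irak3 at 0.65 and Tnip1, a partner of A20, at -0.54. On differentiation 6 of the 10 subunit and kinase genes rose and 4 fell in ES cells (median 0.27), with the subunit genes Rel at 0.73 and Nfkb2 at -1.03, and 7 rose and 2 fell in adult cells (median 0.40), with Rel at 1.90 and Nfkb2 at -0.34. Of the 15 feedback genes 3 rose and 10 fell in ES cells (median -0.52), with the A20-binding Tnip2 at 0.87 and Irak3 at -2.46. In adult cells 4 rose and 7 fell (median -0.02), with the deubiquitinase Cyld at 1.10 and the inhibitor gene Nfkbib at -1.19.

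Most of the other acute phase and complement genes were not called between undifferentiated adult and ES cells, where their signal was low. Their mean was 6.22 in adult Stra8, 6.05 in ES Stra8, 6.10 in adult 129SV and 6.48 in ES 129SV cells. The medians over all genes in these arrays were 7.58 to 7.64. Without a detection call, whether the uncalled genes were expressed was not tested. Of 23 measured, 7 were lower, 1 higher and 15 not called between adult and ES 129SV cells (median -0.05), with the protease inhibitor Serpina3n at -2.12 and Orm1 at 0.25, a call lost in several alternatives. In the Stra8 background 3 rose in adult cells and none fell, Serpina3n at 0.92. The called genes other than Orm1 thus went in the directions of Lcn2 and Saa3. The difference between backgrounds, Stra8 minus 129SV, was positive for 8 of the 23 and negative for none. Of all genes, 21.3% were positive and 43.1% called in that test. Saa1 and Saa2, paralogues of Saa3 that the liver makes and that were singled out after their values were seen, changed by 0.20 ± 0.23 (adjusted p = 0.523) and 0.02 ± 0.15 (0.922) between adult and ES 129SV cells. On differentiation 7 of the 23 rose and 6 fell in ES cells, where 55.2% of all genes were called. The fibrinogen chain Fgb rose most, at 3.93, and the complement factor Cfb fell most, at -2.10. In adult cells 8 rose and 3 fell, where 59.7% of all genes were called. The lipopolysaccharide-binding protein Lbp rose most, at 3.46, and Saa4 fell most, at -0.57, a call lost in several alternatives. Fgb and Lbp, both made by the liver and picked as the widest rises, rose in both origins, while Saa3 fell in both. Others of the list did not rise in both. A2m was at -2.07 in ES and 0.935 in adult cells, and Orm2 fell by 0.57 in adult cells. Of the 23, 10 were not called in ES cells and 12 in adult cells.

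Marker lists of other cells that cultures could hold were read beside these results. Over 14 fibroblast markers the mean log2 signal lay between 8.85 and 8.88 in differentiated adult cells and between 8.17 and 8.23 in differentiated ES cells. In undifferentiated cells it lay between 10.17 and 10.23 in adult Stra8 cells, against 9.33 to 9.41 in ES Stra8 cells, and between 9.44 and 9.49 in adult 129SV cells, against 10.68 to 10.74 in ES 129SV cells. All 14 rose in adult Stra8 cells and all 14 fell in adult 129SV cells, the directions of Lcn2, Saa3 and Cp. On differentiation 13 of the 14 fell and 1 rose in ES cells, and 11 fell and 3 rose in adult cells. The part of these markers in the changes was not tested, and in bulk samples fewer cells of a type and less RNA per cell cannot be told apart. Between adult 129SV and ES Stra8 cells the markers went both ways, with 9 of the 14 group means higher and 5 lower in adult 129SV cells. Among the lower ones, Dcn averaged 10.15 ± 0.03 in adult 129SV cells and 11.74 ± 0.02 in ES Stra8 cells. Lum averaged 5.88 ± 0.11 and 6.89 ± 0.16 in the same order. The rest of the lower ones were closer. Set against ES 129SV cells, Twist2 was at -1.33 in adult 129SV cells and -1.16 in ES Stra8 cells. Pdgfra was at -1.67 and -1.49, and Fap at -0.90 and -0.86. No comparison was fitted between adult 129SV and ES Stra8 cells, so none of these differences was called. Among the higher ones, set against ES 129SV cells, Col1a1 was at -0.52 in adult 129SV cells and -1.57 in ES Stra8 cells. Col3a1 was at -1.10 and -1.91. The mean of the 14 lay between 9.44 and 9.49 in adult 129SV cells, against 9.33 to 9.41 in ES Stra8 cells. Lcn2 averaged 7.37 in adult 129SV cells and 10.13 in ES Stra8 cells.

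Interferon-induced genes stood high in ES 129SV cells, as did the feedback genes. The mean of 13 such genes was 7.41 to 7.504 in adult Stra8 cells, 6.99 to 7.06 in ES Stra8 cells, 6.62 to 6.70 in adult 129SV cells and 10.51 to 10.53 in ES 129SV cells. All 13 were lower in adult than in ES 129SV cells (median -4.08), and 11 were higher in adult than in ES Stra8 cells (median 0.46). Their part in the changes of Nfkbia, Nfkbiz and Tnfaip3 was not tested.

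Macrophage and blood markers differed less among undifferentiated cells, with the 9 genes averaging 7.70 to 7.76 in adult Stra8, 7.40 to 7.43 in ES Stra8, 7.65 to 7.72 in adult 129SV and 7.79 to 7.85 in ES 129SV cells. Of the 9, 4 fell and 1 rose in adult 129SV cells, and 4 rose and 1 fell in adult Stra8 cells. Differentiated adult cells averaged 6.66 to 6.89 and differentiated ES cells 7.10 to 7.21. On differentiation 6 of the 9 fell and 2 rose in ES cells (median -0.81), and 7 fell and 2 rose in adult cells (median -0.54), where Saa3 and Lcn2 also fell. The lysosomal membrane gene Laptm5 was lowest in both, at -2.86 in ES and -3.44 in adult cells, and the macrophage receptor gene Csf1r highest, at 1.63 and 0.88. The part of these markers in the changes was not tested. Markers of visceral endoderm and hepatocytes fell in 2 of 13 in adult 129SV cells and rose in 4 in adult Stra8 cells, and rose in 11 of 13 when ES cells differentiated. Epithelial markers rose in 5 of 10 and fell in 1 in adult 129SV cells, and rose in 3 and fell in 4 in adult Stra8 cells. Sertoli and Leydig cell markers rose in 2 of 8 and fell in 1 in adult 129SV cells, and rose in 3 and fell in 1 in adult Stra8 cells. The 8 pluripotency markers averaged 9.39 to 10.22 in differentiated arrays and 11.68 to 12.09 in undifferentiated ones, as the labels place them. No detection call was available, so no marker could be set at 0.

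**Figure D4:**
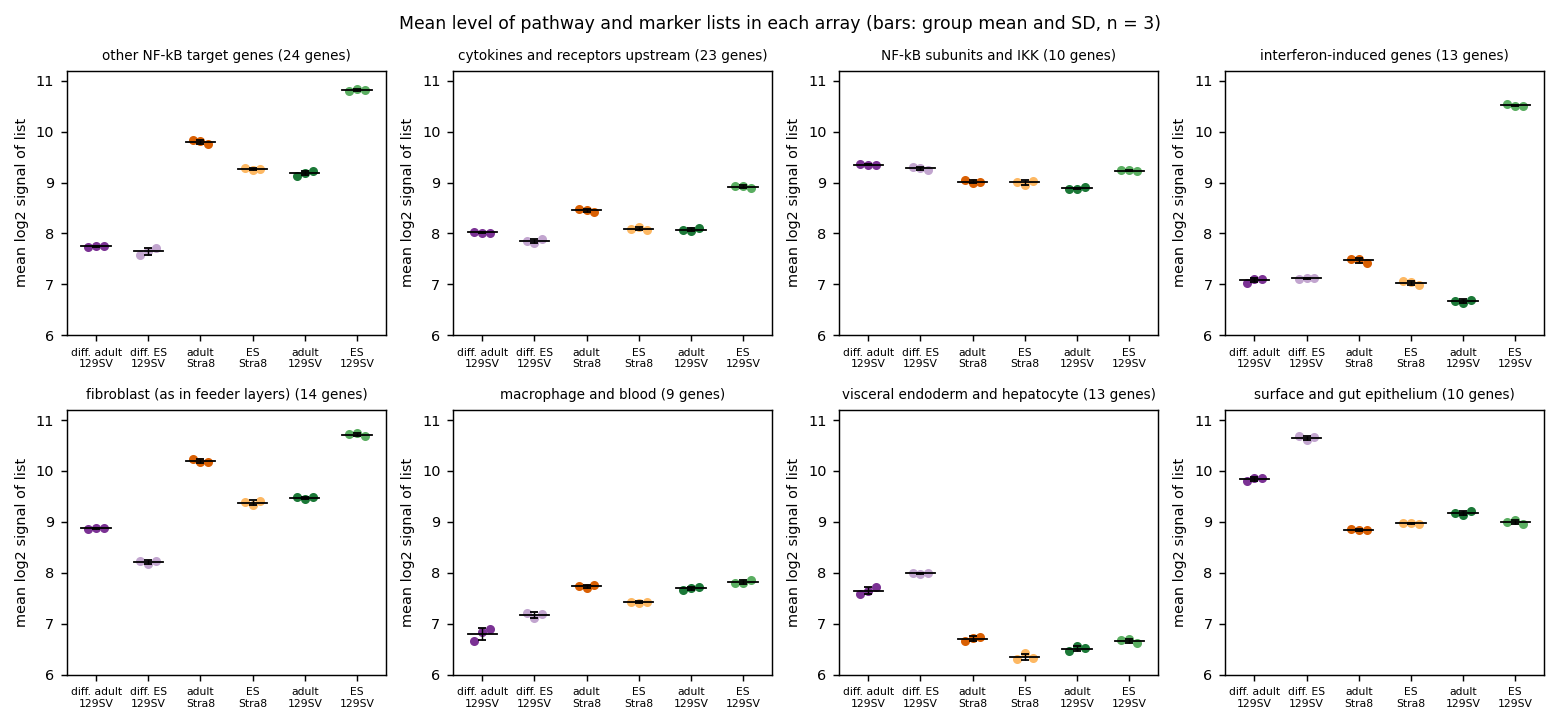
Mean log2 signal of each list (vertical axis) in each array of the 6 groups (horizontal axis), with bars for the group mean and SD (n = 3). NF-kB targets, cytokines and receptors upstream, and fibroblast markers are all highest in ES 129SV cells and next highest in adult Stra8 cells. The means of macrophage and blood markers have the same highest groups, with smaller gaps, and the adult Stra8 arrays overlap the adult 129SV arrays. Interferon-induced genes are high in ES 129SV cells alone.

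Over the 18 arrays Lcn2 correlated with Cp at r = 0.89 and with Saa3 at 0.87, and with Nfkbia at 0.64, Tnfaip3 at 0.44 and Nfkbiz at 0.40. Nfkbia and Tnfaip3 correlated at 0.91, and Saa3 and Nfkbiz at 0.09. The patterns were not cleanly split by r. Cp correlated with Nfkbia at 0.65, Nfkbiz at 0.64 and Tnfaip3 at 0.61. Nfkbiz correlated with Nfkbia, of its own pattern, at 0.63 and with Tnfaip3 at 0.83. These values describe 6 groups of 3 arrays and rest mostly on the differences between group means.

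The genes most alike to each were taken from the 5493 genes whose group means spanned at least 1, by Pearson's r over the 18 arrays. For Saa3 they were Thbs2, a matrix glycoprotein (r = 0.99), the collagen receptor Ddr2 (0.99) and the ribosome factor Eif6 (0.99). For Nfkbia they were the interferon-induced Oas2 (0.99), the glycogen synthase Gys1 (0.99) and complement factor Cfb (0.98), and for Tnfaip3 the interferon-induced Oasl2 (0.98) and Mx2 (0.97), and Ostf1 (0.97). For Cp they were the scaffold Cask (0.98), Fmo2 (0.97) and Osmr, a receptor of oncostatin M (0.97). For Lcn2 they were the histone demethylase Kdm4c, Cdo1 and Arrdc3 (0.96 each), and for Nfkbiz the prion protein gene Prnp, the nuclear receptor Rora (0.96 each) and Serpina3n (0.95). For Hp no gene exceeded 0.55, the value of AI506816, followed by Nckap5 (0.49) and Pcdh18 (0.45). Over the 6 group means, the r of the gene most alike was 0.97 for Lcn2, 0.99 for Saa3, 0.99 for Cp and 1.00 for Nfkbia. With group means taken out, the r of that gene was 0.07 for Lcn2, 0.59 for Saa3, -0.17 for Cp and 0.47 for Nfkbia. It was -0.48 for Nfkbiz, 0.20 for Tnfaip3 and 0.59 for Hp. Except for Hp, the high values thus rest mostly on group means, and they were picked as the highest of 5493 genes.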

How the data were processed

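The authors deposited log2 values. RMA and the Affymetrix Expression Console are the tools named, per the submitters' processing notes, without versions, and joint normalisation of all arrays is not stated there. The values were used as deposited and ran from 1.27 to 14.6. No detection call or depth exists for such values, and 3 arrays per group limit the precision. Of 35556 probe sets, 21789 carry 1 gene symbol, 1621 carry several and 12146 are not named in the platform annotation. The probe set with the highest mean stood for each of 19938 genes.

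With limma 3.58.1 in R 4.3.3, 1 model with 6 group means covered the 18 arrays (lmFit, eBayes, 12 residual and 3.78 prior degrees of freedom), tested on simulated data. Calls required a Benjamini-Hochberg p under 0.05, adjusted over 19938 genes within each of 9 comparisons. Promoter windows came from RefSeq (GRCm38.p6). Members and lists were chosen with earlier results of these data known. From each list the called genes with the widest rise and fall were named, and for each member the 3 genes most alike in r. Deviations from group means correlated at -0.22 to 0.44 between same-numbered replicates (median 0.03) and at -0.37 to 0.31 between others (median -0.002). Not every same-numbered pair was above 0.1, so numbers were not taken as pairs.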

Additional observations from a re-analysis of the deposited data

Results flagged for a closer look

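The difference between adult and ES cells was not the same in both backgrounds for 6 genes, by the test of that difference in the limma fit (Stra8 minus 129SV). It was 5.20 for Lcn2, 3.66 for Saa3, 3.13 for Cp, 2.39 for Tnfaip3, 1.90 for Nfkbiz and 1.24 for Nfkbia on the log2 scale. Of all genes, 43.1% were called in this test, 21.3% with a positive difference. For Lcn2, Saa3, Cp, Nfkbiz and Tnfaip3 all 3 adult arrays lay above all ES arrays in Stra8 cells and below them in 129SV cells. In one direction or the other, arrays did not overlap for 47.6% of all genes in Stra8 cells and 56.8% in 129SV cells.

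The response to differentiation also differed between origins for 6 genes (adult minus ES), by 3.41 for Saa3, 2.94 for Lcn2, 2.57 for Cp, 1.77 for Tnfaip3, 1.15 for Nfkbiz and 0.97 for Nfkbia. Of all genes, 45.7% were called in this test, 24.2% with a positive difference. Cp and Nfkbiz fell in ES cells and rose in adult cells, without overlap of the arrays in either comparison. The arrays of 58.0% and 62.6% of all genes did not overlap there.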

How the results depend on the processing

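The 49 member changes called kept their direction in all 758 values under the alternatives listed beforehand and stayed called in 753, moving by at most 0.19. The alternatives were a replicate block, arrays centred or quantile normalised, dim genes left out, array weights, an intensity trend, probe sets averaged, the compared groups alone and each replicate left out. The 5 losses, of Nfkbia between differentiated groups and Tnfaip3 between adult backgrounds, are given above. Uncalled changes turned sign near 0. Hp between adult and ES 129SV cells was -0.0325 after quantile normalisation and -0.0275 to 0.0589 with a replicate left out. On differentiation of adult cells Hp was 0.0887 after quantile normalisation and -0.12 to 0.0615 with a replicate left out. Between differentiated groups Hp was -0.0019 with array weights and -0.0392 to 0.14 with a replicate left out, and in the response to differentiation -0.0057 and -0.0499 to 0.13. Tnfaip3 between differentiated groups ran from -0.12 to 0.0351 with a replicate left out.

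Requiring a 2-fold change as well left 3 members between adult and ES Stra8 cells, 1 on differentiation of adult cells, 0 between differentiated groups (limma, 4 at the adjusted p alone) and 3 between adult backgrounds. Over all genes it left 785 (adult and ES 129SV), 150 (adult and ES Stra8), 2316 and 2371 (differentiation of ES and adult cells), 253 (differentiated groups), 905 and 974 (Stra8 and 129SV, in ES and adult cells), 1719 (origin effect between backgrounds) and 1348 (response between origins). Array weights called 8690 genes between adult and ES Stra8 cells, against 5638, and a fit to the differentiated groups alone 3537, against 6419. With the replicate number as a block the member counts were the same, 6 and 5 between adult and ES cells of 129SV and Stra8, and 10 of 18 arrays correlated best with their own number. Centring or quantile normalisation moved the median change of all genes by under 0.1.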

Other observations

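Genes that handle iron, haem and copper were read beside Lcn2, Hp and Cp as a list of 14. Between adult and ES 129SV cells 7 fell and 1 rose (median -0.26), with the iron exporter Slc40a1 at -1.26 ± 0.07 and the copper chaperone Atox1 at 0.94. Between adult and ES Stra8 cells 4 rose and none fell, led by Lrp2, an endocytic receptor that takes up lipocalins, at 1.55. On differentiation Slc40a1 rose most in both origins, by 1.66 in ES and 2.36 in adult cells, while Hmox1, which breaks down haem, was lowest in ES cells, at -2.26, and Atox1 in adult cells, at -0.90.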
